A study of Mus musculus with 4 samples.

Results

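The glypicans and syndecans are the proteoglycan families that carry heparan sulfate chains on the cell surface, and their 10 genes in the mouse, Gpc1 to Gpc6 and Sdc1 to Sdc4, were followed here through the developing cerebral cortex. They were found by their symbols in the deposited feature list, where each has 1 entry among 57126 features. The study profiled single cells of dissected cortex from 4 mice with the Asteria kit, which captures cells on beads after trypsin dissociation, and 15000 cells of each sample entered the coupling step. At embryonic day 14.5 (E14.5) there is 1 wild-type library and 1 labelled Tsku knockout, and on the day of birth (P0) there is again 1 of each genotype. Tsku encodes Tsukushi, a small leucine-rich proteoglycan that is secreted. The knockout allele, strain and litter are not known from the labels. Each library holds the whole cortical dissection of 1 animal, and no cell sorting is described. With 1 library per group no test across animals was possible, so each comparison is between 2 animals, and the 95% intervals given with each value cover counting error only.

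Glypicans are tethered to the outer membrane by a lipid anchor and carry their heparan sulfate chains close to the cell surface, while syndecans span the membrane and have a short cytoplasmic tail that binds scaffold proteins. The chains of both families bind growth factors and morphogens such as FGF, Wnt and Hedgehog ligands, and they present these to their receptors or hold them back. Glypicans can be released by cleavage of their anchor and syndecans by shedding proteases, and both are core components of the surface and niche of neural progenitors.

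After filtering, the libraries held 618 (E14.5 wild type), 4107 (labelled E14.5 knockout), 1044 (P0 wild type) and 1430 (P0 knockout) barcodes, with medians of 2829 to 7316 counts per barcode. The library labelled E14.5 knockout was the shallowest per barcode and E14.5 wild type the deepest. Tsku gave 52, 74, 42 and 0 counts in that order, so the library labelled E14.5 knockout goes against its label, and no direction at E14.5 is read as an effect of the deletion. Xist and Ddx3y showed that the 2 mice at E14.5 also differed in sex (Xist 6707 counts in the library labelled E14.5 knockout and 3 in E14.5 wild type), while both P0 mice had Ddx3y and at most 1 count of Xist. Sex and label cannot be told apart at E14.5, which bears on Gpc3 and Gpc4, both on chromosome X. Barcodes were placed in 12 marker gates, each a cell class with 8 marker genes, when at least 3 of those markers were counted and at least 1 more than for any other gate. Each gate held barcodes in every library except the mural gate, which was empty in P0 wild type, and the choroid plexus gate, which held 18 and 120 barcodes at E14.5 and none at P0. Of 7265 deposited barcodes, 4 occurred in more than 1 library. Levels are CPM, a gene's counts scaled to a common total of counts of the same barcodes. They were not divided by gene length, so they are compared within a gene and not between genes.

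Over whole libraries, the 10 genes together made up 331 CPM [316, 346] in E14.5 wild type, 363 [353, 373] in the library labelled E14.5 knockout, 303 [289, 317] in P0 wild type and 403 [390, 416] in P0 knockout. The glypicans gave 156, 221, 97.9 and 128 CPM, and the syndecans 175, 141, 205 and 275 CPM, in that order of libraries. Glypican counts therefore stood lower in both P0 libraries than in either E14.5 library, and syndecan counts stood higher in both P0 libraries. In a library sum, fewer cells of a type and less RNA per cell cannot be told apart, so levels of the members within gates are given as well. When every barcode was thinned to 1500 counts, 59.2% to 66.6% of barcodes held no count of any of the 10 genes and 4.99% to 8.47% held 2 or more of them.

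**Figure D1:**
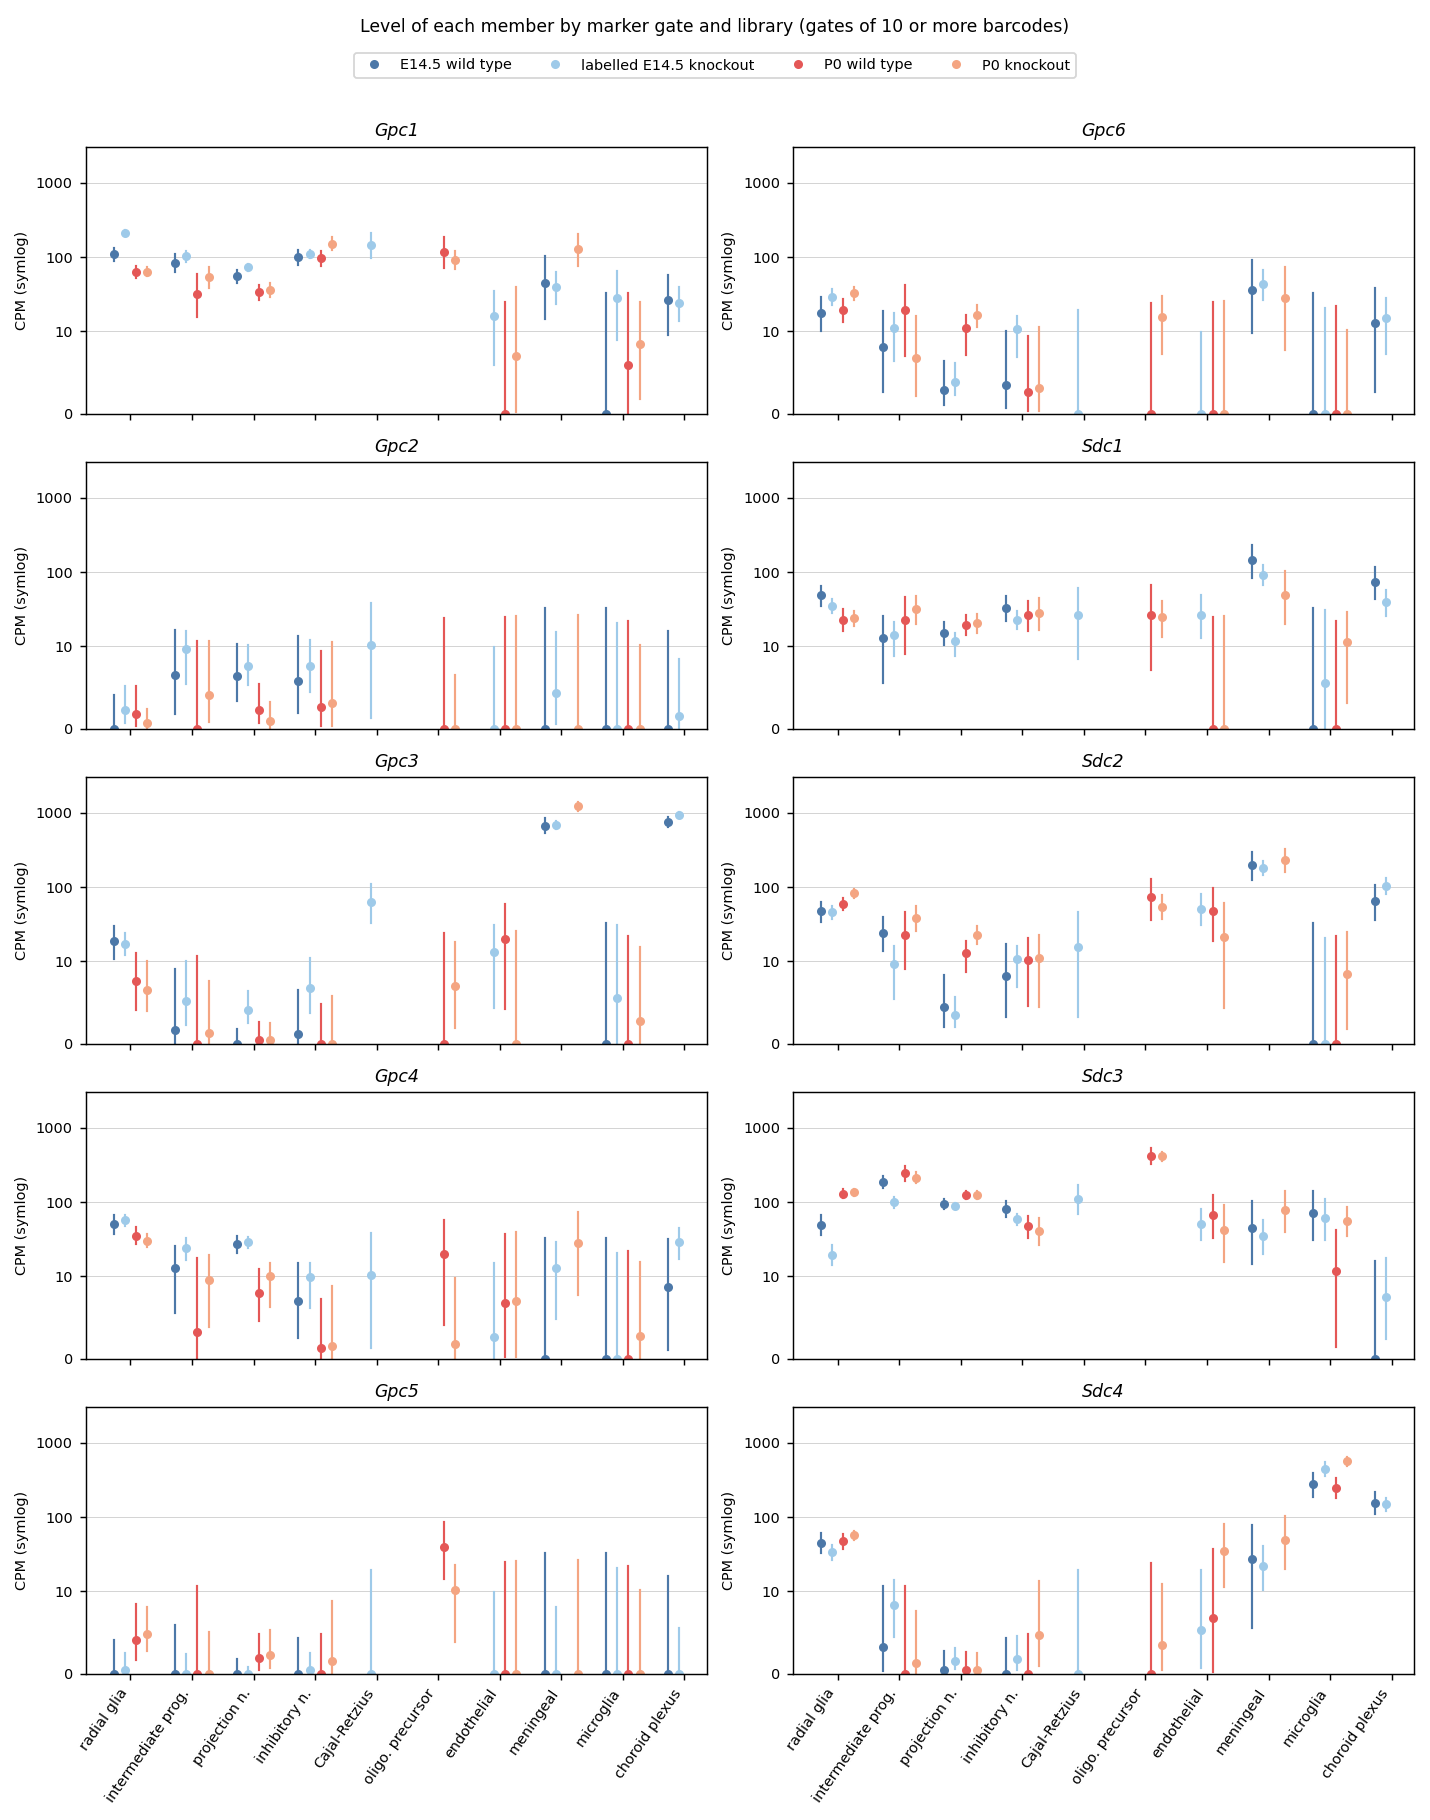
Level of each of the 10 genes (CPM, on an axis that is linear near 0 and logarithmic above) in marker gates of 10 or more barcodes. Points are the 4 libraries and bars are 95% counting intervals. Gpc3 sits between 671 and 1219 CPM in the meningeal fibroblast gate and Sdc4 between 247 and 569 CPM in the microglia and macrophage gate, while Gpc1 and Sdc3 lie above 30 CPM in all plotted projection neuron points.

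Gpc1, a glypican abundant in developing neurons and progenitors, was counted in all of the neural gates. Its whole-library levels were 72.9 CPM [66.0, 80.3] in E14.5 wild type, 103 [97.4, 108] in the library labelled E14.5 knockout, 56.4 [50.6, 62.8] in P0 wild type and 63.8 [58.6, 69.3] in P0 knockout. The radial glia and astrocyte gate, which holds neural stem cells and their glial progeny, gave 109 [88.4, 132], 211 [192, 231], 63.0 [51.6, 76.1] and 63.8 [55.2, 73.4] CPM. Both P0 values lay below both E14.5 values in this gate. The projection neuron gate gave 54.9, 72.5, 33.6 and 36.1 CPM, and the inhibitory neuron gate 99.2, 111, 97.0 and 151 CPM. At P0 the order of these gates was therefore inhibitory neurons over radial glia and astrocytes over projection neurons in both libraries, with no overlap of neighbouring intervals in P0 knockout. Intermediate progenitors are not part of this order. They were at 32.0 CPM in P0 wild type and 53.2 in P0 knockout, from 10 and 39 counts. In P0 wild type the first 2 neighbours touched at the interval ends, 76.1 and 76.1 CPM. The few Cajal-Retzius barcodes (2 to 50 per library) had 147 to 801 CPM, and the oligodendrocyte precursor gate at P0 had 118 [70.2, 187] and 91.3 [68.2, 120] CPM. Gpc1 had 0 to 6 counts in the endothelial gate and 0 to 5 in the microglia and macrophage gate of each library.

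Gpc2, a glypican of differentiating neurons, was sparse, with 23, 92, 12 and 9 counts per library. In the projection neuron gate it gave 6.37 [3.39, 10.9], 7.59 [5.29, 10.6], 2.33 [0.757, 5.44] and 0.914 [0.111, 3.30] CPM. In the radial glia and astrocyte gate it stayed at 0 to 5 counts. Neurons and intermediate progenitors held most of its counts at E14.5, including 56.5% in the projection neuron gate of E14.5 wild type.

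Gpc3, whose loss causes an overgrowth syndrome in humans, was carried mainly by the choroid plexus gate at E14.5 and the meningeal fibroblast gate at P0. In the choroid plexus gate it gave 759 CPM [650, 880] in E14.5 wild type and 938 [866, 1015] in the library labelled E14.5 knockout. The gate held 62.9% and 58.1% of its counts there. In the meningeal fibroblast gate it gave 671 [528, 841] and 687 [613, 768] CPM at E14.5, then 817 [575, 1126] in P0 wild type and 1219 [1044, 1415] in P0 knockout. Choroid plexus and meningeal intervals overlapped in E14.5 wild type and not in the other E14.5 library. The meningeal gate held 61.7% of the gene's counts in P0 wild type and 80.0% in P0 knockout, from 6 and 17 barcodes. Within the radial glia and astrocyte gate the levels were 18.7, 17.4, 7.65 and 6.51 CPM, and in the projection neuron gate at most 4.12 CPM. Thinned to 1500 counts, 46.2% to 83.3% of meningeal fibroblast barcodes had a Gpc3 count and at most 0.25% of projection neuron barcodes did, at gate medians of 3974 to 7559 counts and 3180 to 7764 counts per barcode before thinning. The unthinned shares were 86.6% to 100% and 0% to 0.732%. In E14.5 wild type 1 choroid plexus barcode held 56 of the gate's 175 counts, and without it the level was 656 CPM [544, 785].

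Gpc4, a glypican made by astrocytes that supports synapse formation, had its highest level among the larger gates in radial glia and astrocytes, with 50.6 [37.0, 67.4], 57.0 [47.5, 67.7], 35.3 [26.9, 45.4] and 30.3 [24.4, 37.1] CPM. The projection neuron gate followed at 26.9 [20.3, 35.1] and 28.6 [24.0, 34.0] CPM at E14.5, with no overlap with the first gate, and at 7.93 [4.62, 12.7] and 10.1 [6.30, 15.2] CPM at P0. In upper-layer barcodes of the projection neuron gate Gpc4 was at 24.6 and 14.96 CPM at E14.5 and 8.20 and 10.6 at P0. In both P0 libraries the radial glia and astrocyte gate held 67.4% of Gpc4 counts, against 37.7% and 35.1% at E14.5. Inhibitory neurons stayed at 1.31 to 9.88 CPM.

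Gpc3 and Gpc4 are adjacent coding genes on chromosome X in the RefSeq table used here, yet their counts lay in different gates. Their promoter windows are shown because they are neighbours with unlike patterns: each is the 250 bases before the annotated start, 5′ to 3′ on the gene's strand, from RefSeq on GRCm38.p6, chrX:52613975-52614224 (minus strand) for Gpc3 and chrX:52164924-52165173 (minus strand) for Gpc4. Capitals mark the GC box GGGCGG on either strand.
Gpc3: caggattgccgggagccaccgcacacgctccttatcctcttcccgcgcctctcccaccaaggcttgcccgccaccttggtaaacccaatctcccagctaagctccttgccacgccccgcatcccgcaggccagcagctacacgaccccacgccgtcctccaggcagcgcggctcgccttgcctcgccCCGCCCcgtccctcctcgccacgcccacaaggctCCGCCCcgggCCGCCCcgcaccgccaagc
Gpc4: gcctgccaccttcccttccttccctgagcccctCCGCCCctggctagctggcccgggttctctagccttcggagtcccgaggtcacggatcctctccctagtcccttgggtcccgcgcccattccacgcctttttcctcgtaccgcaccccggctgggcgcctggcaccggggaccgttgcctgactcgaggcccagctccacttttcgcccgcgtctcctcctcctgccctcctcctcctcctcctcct
The Gpc3 window holds 3 GC boxes, 25 CpG and 71.6% G or C, and the Gpc4 window 1 GC box, 18 CpG and 68.4% G or C. No TATA box (TATAAA, either strand) was found in either window. Over the 32841 windows of the table, 32.7% hold at least 1 GC box and 12.4% a TATA box, with a median of 6 CpG and 52.4% G or C. Across 23 sums of a gate in a library with 30 or more barcodes, the correlation of log2(CPM + 10) between Gpc3 and Gpc4 was 0.27, given as a description of sums that share libraries.

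Gpc5, a glypican of astrocytes, was nearly absent from the embryonic libraries, with 0 counts in E14.5 wild type (a 0 that allows up to 3 counts over the library) and 2 in the library labelled E14.5 knockout, and it gave 17 and 35 counts in P0 wild type and knockout. At P0 the radial glia and astrocyte gate held 7 and 15 of these counts, the oligodendrocyte precursor gate 6 in each library (39.5 and 10.5 CPM from 28 and 99 barcodes) and the projection neuron gate 4 and 5. Within the radial glia and astrocyte gate at P0, barcodes that also had 3 or more astrocyte genes gave 5.35 and 6.18 CPM, on 7 and 15 counts. The others, 62 and 114 barcodes, gave none. Each of these 0 values allows up to 3 counts, which is 7.96 CPM in wild type and 4.73 in knockout. In P0 wild type, barcodes with and without astrocyte genes were therefore not told apart.

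Gpc6, its neighbour on chromosome 14 and also a glypican that astrocytes secrete, gave 17.6 [10.1, 28.6], 29.4 [22.7, 37.4], 19.4 [13.4, 27.3] and 32.9 [26.8, 40.0] CPM in the radial glia and astrocyte gate. In the projection neuron gate it gave 2.94 [1.08, 6.40] and 3.90 [2.31, 6.17] CPM at E14.5 and 11.2 [7.17, 16.6] and 16.5 [11.5, 22.8] at P0. Both P0 values of the neurons stood above both E14.5 values, with no overlap of intervals. They overlapped those of radial glia and astrocytes in P0 wild type and not in the other 3 libraries. The meningeal fibroblast gate gave 22.1 to 43.8 CPM from 1 to 20 counts, and the endothelial, mural and microglia gates gave 0 counts in every library.

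**Figure D2:**
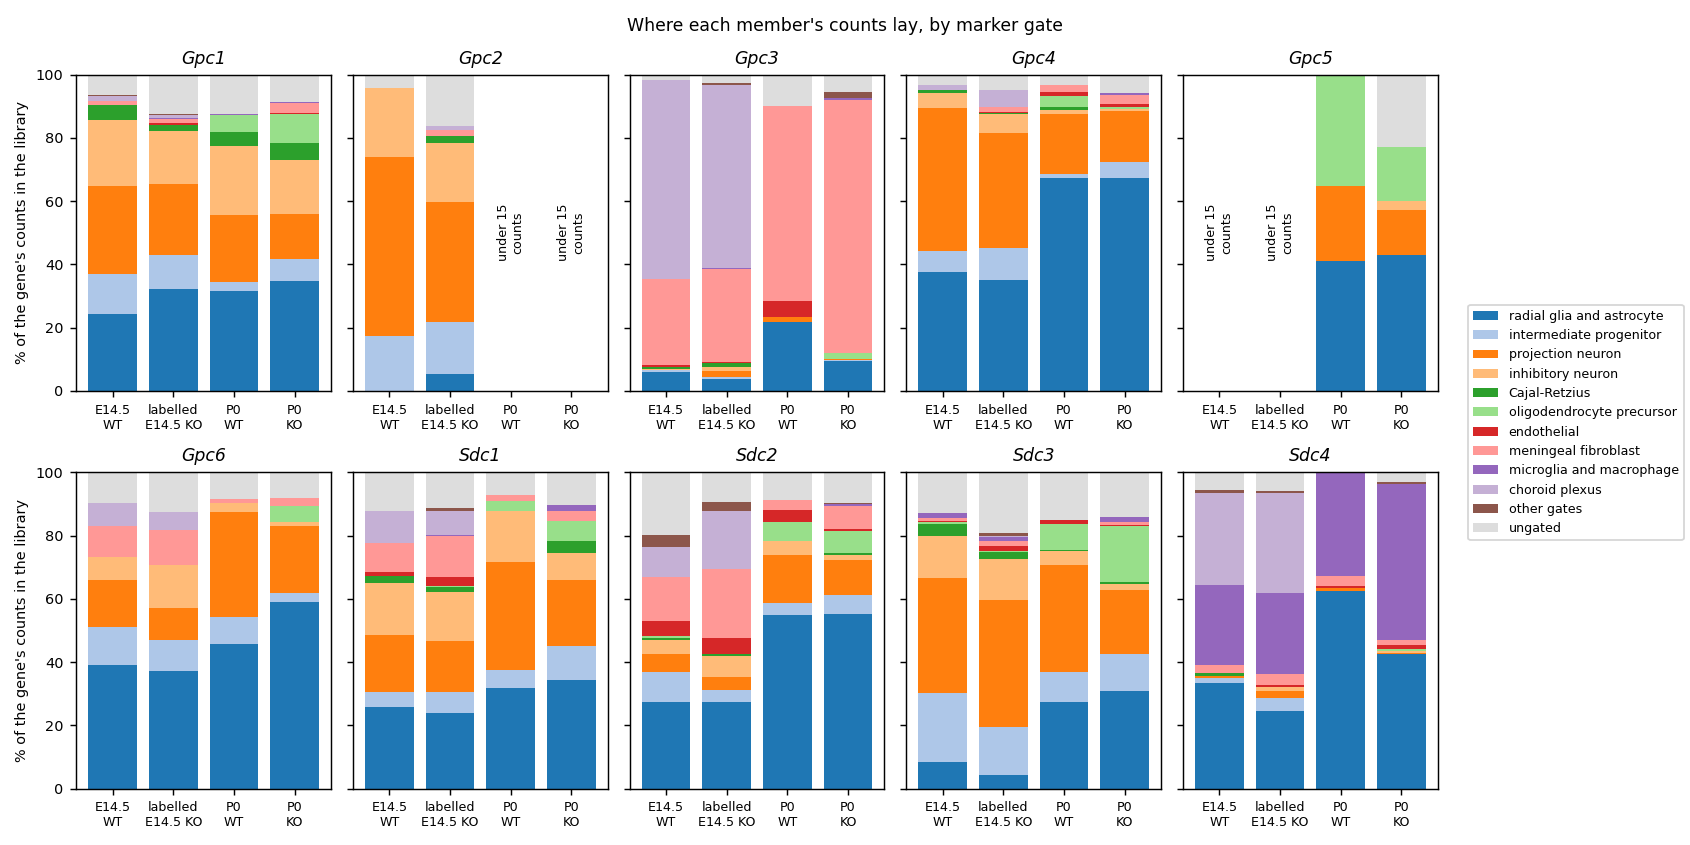
Share of each gene's counts (% of the gene's counts in a library) that lay in each marker gate, as stacked bars per library, for libraries with 15 or more counts of the gene. Choroid plexus and meningeal fibroblast gates fill most of the Gpc3 bars, at P0 61.7% and 80.0% from the meningeal gate, while the radial glia and astrocyte gate fills 67.4% of Gpc4 in both P0 libraries.

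Among the syndecans, Sdc1, known from epithelia and neural progenitors, was at 48.4 [35.1, 64.9], 35.2 [27.8, 43.8], 22.9 [16.3, 31.4] and 24.1 [18.9, 30.3] CPM in the radial glia and astrocyte gate. At P0, barcodes of that gate with cell cycle genes gave 47.8 and 37.4 CPM and those without gave 8.40 and 18.3 CPM. Its level in the meningeal fibroblast gate was 143 [81.8, 233] and 91.9 [66.3, 124] CPM at E14.5. The projection neuron gate stayed between 11.7 and 20.6 CPM.

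Sdc2, a syndecan of mesenchymal cells, was highest in the mural and meningeal fibroblast gates, which overlapped: 682 [250, 1484] and 254 [127, 455] CPM for mural cells at E14.5, from 6 and 11 counts, and 197 [123, 298], 182 [145, 225], 132 [48.6, 288] and 234 [161, 328] CPM for meningeal fibroblasts. In the radial glia and astrocyte gate it gave 47.3 [34.2, 63.7] and 45.9 [37.4, 55.6] CPM at E14.5, then 59.4 [48.4, 72.2] and 82.1 [72.2, 92.8] at P0. In the projection neuron gate it gave 4.41 [2.02, 8.37] and 3.47 [1.98, 5.64] CPM at E14.5 and 13.1 [8.67, 18.9] and 22.9 [17.0, 30.1] at P0. In inhibitory neurons the 4 intervals overlapped, on 7 to 24 counts.

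Sdc3, the syndecan best known from the nervous system, gave 94.2 [86.3, 103], 70.7 [66.5, 75.2], 133 [124, 143] and 152 [144, 160] CPM in whole libraries. At P0 its highest level among gates of 10 or more barcodes was in the oligodendrocyte precursor gate, 421 [324, 538] and 412 [361, 469] CPM, followed without overlap by intermediate progenitors, the dividing precursors of projection neurons, at 243 [192, 304] and 214 [182, 250]. Radial glia and astrocytes (130 [113, 148] and 135 [122, 148]) and projection neurons (126 [111, 142] and 124 [110, 140]) came next and overlapped each other. In the radial glia and astrocyte gate the E14.5 values were lower, at 49.5 [36.1, 66.2] and 19.6 [14.2, 26.3] CPM. Thinned to 1500 counts, 8.75% and 3.94% of these barcodes had a Sdc3 count at E14.5, and 16.1% and 18.4% at P0. The unthinned shares were 25.0%, 5.82%, 49.4% and 50.6%.

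Oligodendrocyte precursor genes were counted inside the radial glia and astrocyte gate, at a summed 147, 93.5, 867 and 846 CPM over 8 markers. Sdc3 stood higher in barcodes with these markers at P0 and not in E14.5 wild type. Barcodes of the gate with at least 1 of these markers gave 45.3, 22.4, 149 and 156 CPM of Sdc3, and barcodes with none gave 53.1, 19.0, 80.8 and 75.2 CPM. Sdc2 showed the other order at P0, with 44.7 and 78.8 CPM in barcodes with a marker and 97.8 and 91.4 CPM in those with none. Ratios without the barcodes that held a marker are given with the age differences below. Such barcodes were 26 of 80 in E14.5 wild type and 165 of 249 in P0 wild type. In the knockout-labelled libraries they were 98 of 619 and 313 of 445. Leaving out such unequal parts of the gate cannot isolate the part of oligodendrocyte precursors.

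Sdc4, a syndecan of adhesion sites, was highest in the microglia and macrophage gate, with 277 [188, 393], 443 [352, 552], 247 [178, 334] and 569 [493, 653] CPM. The choroid plexus gate followed at E14.5 with 156 [109, 216] and 148 [120, 180] CPM, overlapping the first gate in wild type, and the radial glia and astrocyte gate gave 45.1 [32.3, 61.1], 33.8 [26.7, 42.3], 47.1 [37.3, 58.6] and 56.7 [48.6, 65.7]. In the projection neuron gate it was counted 1, 7, 1 and 1 times. Thinned to 1500 counts, 15.4% to 43.5% of microglia and macrophage barcodes and at most 0.167% of projection neuron barcodes had a count (unthinned 53.8% to 68.9% and 0.253% to 0.569%, at medians of 2945 to 7211 and 3180 to 7764 counts). In P0 knockout 1 microglia barcode held 39 of the gate's 202 counts, and the level without it was 476 CPM [405, 555].

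The windows before the starts of Sdc3 and Sdc4 are shown because their highest P0 levels among gates of 10 or more barcodes lay in different gates, oligodendrocyte precursors for Sdc3 and microglia and macrophages for Sdc4. They are chr4:130792287-130792536 (plus strand) and chr2:164443189-164443438 (minus strand) of GRCm38.p6 from RefSeq, 250 bases each, with GC boxes in capitals as above.
Sdc3: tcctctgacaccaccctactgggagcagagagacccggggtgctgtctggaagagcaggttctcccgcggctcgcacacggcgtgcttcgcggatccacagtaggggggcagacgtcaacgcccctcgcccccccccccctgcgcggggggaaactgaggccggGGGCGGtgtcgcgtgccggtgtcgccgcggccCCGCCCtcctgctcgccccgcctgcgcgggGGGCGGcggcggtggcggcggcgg
Sdc4: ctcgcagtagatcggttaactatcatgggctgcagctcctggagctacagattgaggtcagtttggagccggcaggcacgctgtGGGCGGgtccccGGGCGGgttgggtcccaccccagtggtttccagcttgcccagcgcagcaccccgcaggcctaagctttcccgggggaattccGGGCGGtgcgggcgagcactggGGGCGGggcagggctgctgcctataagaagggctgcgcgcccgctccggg
The Sdc3 window holds 3 GC boxes, 32 CpG and 76.4% G or C, and the Sdc4 window 4 GC boxes, 19 CpG and 68.0% G or C, with no TATA box in either. Of the 7 members with a window in the table, the window of Gpc5 alone held a TATA box. The correlation between Sdc3 and Sdc4 over the 23 gate sums was -0.42.

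The 4 comparisons below share libraries, so their values are given side by side without a test between them. A gene was counted as higher or lower when it differed by 1.5-fold or more and had at least 30 counts over both sums, and log2 ratios are of CPM. For thinned ratios within gates, barcodes were gated again on the thinned counts, so the barcodes of a gate changed as well. Thinned shares of barcodes kept the gates set at full depth.

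Between the ages in wild type, Gpc2 and Gpc3 were lower at P0 by 1.5-fold among the glypicans and Gpc6 was higher, while Gpc5 went from 0 to 17 counts. The log2 ratio of P0 over E14.5 was -2.32 [-2.75, -1.91] for Gpc3, -1.05 [-2.19, 0.02] for Gpc2, -0.56 [-0.98, -0.16] for Gpc4 and -0.37 [-0.58, -0.16] for Gpc1, and 0.70 [0.13, 1.29] for Gpc6. Gpc1 and Gpc4 were within 1.5-fold. Of the syndecans, Sdc1 was lower (-0.58 [-0.93, -0.24]), Sdc3 higher within 1.5-fold (0.50 [0.34, 0.66]), and Sdc2 (0.12) and Sdc4 (-0.05) differed by less than their counting error. Of 9 members with enough counts, 3 were lower by the fold used (Gpc2, Gpc3 and Sdc1), where 9.92% of all 13261 genes were, and 1 was higher (Gpc6), where 14.2% of genes were. The Gpc3 ratio moved to -0.54 [-1.46, 0.35] when the endothelial, mural, meningeal fibroblast, microglia and macrophage, choroid plexus and erythroid gates were left out, with 20 and 26 counts. Thinned to 1500 counts, the Gpc6 ratio was 0.11 [-1.03, 1.31] and Sdc1, at -0.56, fell just under 1.5-fold. Gpc4 passed 1.5-fold under TMM or DESeq2 scaling, at -0.64 and -0.61.

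Within the radial glia and astrocyte gate of the wild types, 4 of 8 members differed by 1.5-fold, where 31.5% of genes did: Sdc3 at 1.39 [0.93, 1.89], and Gpc3 (-1.29 [-2.45, -0.16]), Sdc1 (-1.08 [-1.74, -0.42]) and Gpc1 (-0.79 [-1.20, -0.38]). After thinning and gating again, the Gpc1 ratio there was -0.11 [-1.46, 1.49] with 21 and 6 counts and the Sdc1 ratio -0.33 with 3 and 1. Neither kept its call, and the parts of depth and of the changed barcodes were not told apart. Among barcodes of the gate with no oligodendrocyte precursor marker, Sdc3 was at 0.61 [-0.15, 1.39], so the interval then held 0, and Sdc2 was at 1.41 [0.60, 2.29] in place of 0.33. The gate also held other cells at each age. Barcodes with 3 or more astrocyte genes were 18 of 80 in E14.5 wild type and 187 of 249 in P0 wild type, and those with cell cycle genes 41 and 68. Without astrocyte genes Sdc3 was at 46.9 CPM at E14.5 and 151 at P0, and Gpc1 at 121 and 92.9. For Sdc1 and the other members the part of this shift was not tested. In P0 wild type, Sdc1 was higher in barcodes of the gate with cell cycle genes than in those without, as given above. Its level in the barcodes with cell cycle genes lay near the 48.4 CPM of the whole gate in E14.5 wild type. In the projection neuron gate 4 of 6 members differed by that fold, where 24.6% of genes did. These were Gpc6 (1.93 [0.60, 3.51]), Sdc2 (1.57 [0.44, 2.83]), Gpc4 (-1.77 [-2.64, -0.96]) and Gpc1 (-0.71 [-1.16, -0.27], or -0.53 with a gate margin of 2 markers). After thinning to 1500 counts, Gpc4 was at -0.03 [-1.69, 1.74] with 9 and 6 counts and Sdc2 at -0.36 [-2.33, 1.69] with 6 and 5 counts, and neither kept its call. The neurons of the gate differed between the ages, with 79 deep-layer and 122 upper-layer barcodes at E14.5 and 6 and 386 at P0. Among upper-layer barcodes alone, Gpc6 was at 5.91 CPM at E14.5 and 11.6 at P0, Gpc1 at 51.2 and 33.3, and Sdc2 at 0 counts and then 27 counts (13.02 CPM). The part of layer in the ratios of the whole gate was not tested further.

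In the knockout-labelled libraries, which share no mouse with the wild types, Gpc2 (-2.64 [-3.82, -1.66]), Gpc3 (-1.61 [-1.82, -1.39]), Gpc4 (-0.69 [-0.99, -0.41]) and Gpc1 (-0.69 [-0.83, -0.55]) were lower at P0. Gpc5 (4.84 [2.88, 7.94], 35 counts against 2), Sdc4 (1.11 [0.90, 1.33]), Sdc3 (1.10 [0.98, 1.22]), Sdc2 (0.98 [0.78, 1.18]) and Gpc6 (0.66 [0.35, 0.97]) were higher, and Sdc1 was at 0.09. That is 4 of 10 members lower, where 13.9% of genes were, and 5 of 10 higher, where 23.3% of genes were. Scaling by TMM or by DESeq2 size factors moved every ratio of this comparison by -0.16 on the log2 scale, and Gpc6 then fell under 1.5-fold. In the intermediate progenitor and projection neuron gates, scaling moved the ratios between ages by up to -0.13. The mice of this comparison also differ in sex.

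In the radial glia and astrocyte gate of these libraries 6 of 8 members differed by 1.5-fold, where 44.2% of genes did. Sdc3 was higher at 2.78 [2.33, 3.27], with Sdc2 at 0.84 [0.50, 1.18] and Sdc4 at 0.74 [0.35, 1.15], and Gpc1 (-1.73 [-1.97, -1.48]), Gpc3 (-1.41 [-2.27, -0.60]) and Gpc4 (-0.91 [-1.31, -0.52]) were lower, Gpc4 being at -0.57 among barcodes with no oligodendrocyte precursor marker. Sdc3 among those barcodes was at 1.99 [1.36, 2.63]. Barcodes with astrocyte genes were 13 of 619 at E14.5 and 331 of 445 at P0, and cycling ones 352 and 100. Without astrocyte genes Sdc3 was at 20.1 and 188 CPM, Sdc2 at 45.7 and 64.7, Sdc4 at 32.9 and 42.6 and Gpc1 at 208 and 82.0 (E14.5, then P0). Among barcodes that were not cycling, Sdc3 was at 21.6 and 141 CPM and Gpc1 at 197 and 68.4. The part of these shifts in the other members' ratios was not tested. The projection neuron gate had 6 of 7 members past that fold, where 36.6% of genes were, higher for Sdc2 (2.72 [1.88, 3.63]), Gpc6 (2.08 [1.22, 2.98]) and Sdc1 (0.81 [0.21, 1.41]) and lower for Gpc2 (-3.05 [-6.16, -1.09]), Gpc4 (-1.51 [-2.23, -0.85]) and Gpc1, at 36.1 CPM against 72.5. Thinned to 1500 counts, Gpc4 turned to 0.09 [-1.08, 1.13] with 10 and 36 counts. This gate held 689 deep-layer and 361 upper-layer barcodes at E14.5 and 11 and 365 at P0. In the upper-layer barcodes Sdc2 was at 1.66 and 20.7 CPM, Gpc6 at 8.31 and 17.4 and Gpc1 at 74.8 and 35.7. Gpc4 was at 14.96 and 10.6 CPM in these barcodes, beside 28.6 and 10.1 CPM in the whole gate. The part of layer in the ratios was not tested further.

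**Figure D3:**
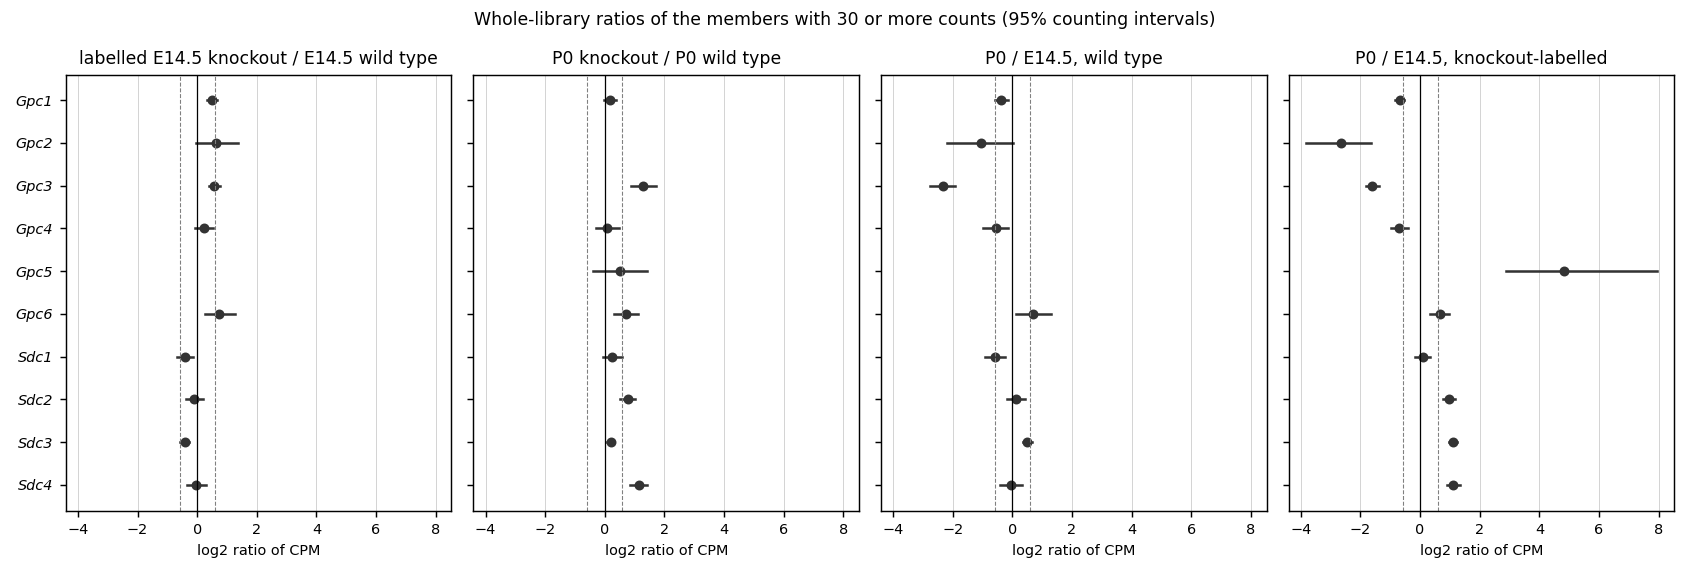
Log2 ratios of CPM over whole libraries for members with 30 or more counts, in the 4 comparisons, as points with 95% counting intervals. Dashed lines mark 1.5-fold. All 9 plotted P0 knockout over wild type points lie above 0, from 0.08 for Gpc4 to 1.29 for Gpc3, where 7895 of 13828 genes do.

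At P0 the Tsku knockout library had higher levels than wild type for each of the 9 members with enough counts, where 7895 of 13828 genes were above 0. The log2 ratios of knockout over wild type were 1.29 [0.87, 1.73] for Gpc3, 1.13 [0.84, 1.43] for Sdc4, 0.76 [0.51, 1.02] for Sdc2 and 0.70 [0.29, 1.12] for Gpc6. The other ratios were within 1.5-fold, at 0.19 [0.06, 0.32] for Sdc3 and with intervals holding 0 for Sdc1 (0.26), Gpc1 (0.18), Gpc5 (0.49) and Gpc4 (0.08). Thus 4 of 9 members were higher by 1.5-fold, where 10.4% of 13828 genes were, and 0 were lower, where 4.45% were. The median of these 9 was 0.49, beside 0.05 for all genes, and it was 0.38 over all 10 members with no count minimum, Gpc2 being at -0.96 on 9 counts against 12. Within the radial glia and astrocyte gate the members' median was 0.06, beside 0.06 for all genes.

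The gates that carry Gpc3 and Sdc4 held more barcodes in the P0 knockout library, with intervals that overlapped. The meningeal fibroblast gate held 0.575% [0.211, 1.25] of barcodes in wild type and 1.19% [0.694, 1.90] in knockout, with Gpc3 at 817 and 1219 CPM in it. The microglia and macrophage gate held 2.01% [1.25, 3.06] and 3.15% [2.30, 4.19]. Without the 6 gates left out above (endothelial to erythroid) the Gpc3 ratio was 0.40 [-0.42, 1.26], from 38 and 20 counts. It no longer passed 1.5-fold. Sdc4 was then at 0.73 [0.35, 1.13], Gpc6 at 0.71 and Sdc2 at 0.76. Within the microglia and macrophage gate itself the Sdc4 levels without the barcode with most counts in each library were 208 CPM [143, 292] in wild type and 476 [405, 555] in knockout, from 20 and 44 barcodes. The radial glia and astrocyte gate held 23.9% of barcodes in wild type and 31.1% in knockout, and the oligodendrocyte precursor gate 2.68% and 6.92%.

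Within the radial glia and astrocyte gate at P0, 1 of 8 members passed 1.5-fold, where 15.7% of genes did. Gpc6 was higher in knockout at 0.76 [0.18, 1.37], and Sdc2 was at 0.47 [0.13, 0.81]. Among barcodes with no oligodendrocyte precursor marker Sdc2 was at -0.10 [-0.65, 0.47]. Sdc4 (0.27 [-0.12, 0.67]), Gpc1 (0.02), Gpc4 (-0.22), Sdc1 (0.07), Gpc3 (-0.23 [-1.31, 0.90]) and Sdc3 (0.05 [-0.19, 0.29]) had intervals that held 0. In the projection neuron gate Sdc2 alone passed, at 0.81 [0.11, 1.53], which is 1 of 6 members where 12.1% of genes passed. In the inhibitory neuron gate Gpc1 was higher in knockout, at 0.64 [0.19, 1.10].

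At E14.5 the library labelled knockout was above wild type for Gpc6 (0.74 [0.25, 1.27]) and Gpc2 (0.63 [-0.04, 1.36]), which is 2 of 9 members higher by 1.5-fold where 9.71% of 14134 genes were. None of the members was lower by that fold, where 10.9% of genes were. Gpc3 lay just under 1.5-fold at 0.58 [0.39, 0.77], passed it under TMM scaling (0.60), and was at 0.82 [0.61, 1.03] without the barcode with most counts in each library. Gpc1 was at 0.49 [0.33, 0.66], and Sdc1 (-0.41 [-0.68, -0.14]) and Sdc3 (-0.41 [-0.57, -0.26]) were lower. After thinning to 1500 counts Gpc6 was at 0.01 [-0.92, 1.07] and Gpc2 at 0.40 [-1.08, 2.36], both under 1.5-fold, and Gpc1 passed it at 0.82 [0.43, 1.23]. The 2 libraries differed in depth per barcode, and the part of depth in the ratios was not tested apart from this thinning.

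The radial glia and astrocyte gate at E14.5 had 3 of 8 members past 1.5-fold, where 30.3% of genes were. Gpc1 was higher in the library labelled knockout at 0.96 [0.64, 1.28] and at 1.68 [0.52, 3.14] after thinning, Gpc6 was at 0.74 [-0.06, 1.63] (0.34 without barcodes that held an oligodendrocyte precursor marker), and Sdc3 was lower at -1.34 [-1.97, -0.70]. Other cell markers moved with these ratios in the gate. Barcodes with astrocyte genes were 18 of 80 in wild type and 13 of 619 in the other library, and the 8 choroid plexus markers summed to 1427 and 349 CPM. Without the barcodes that had astrocyte genes Gpc1 was at 121 and 208 CPM and Sdc3 at 46.9 and 20.1. The part of the choroid plexus markers was not tested. Sdc3 was also lower in the intermediate progenitor gate, at -0.90 [-1.26, -0.54], and was at -0.08 in the projection neuron gate. None of 5 members passed 1.5-fold in the projection neuron gate, where 21.7% of genes did.

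**Figure D4:**
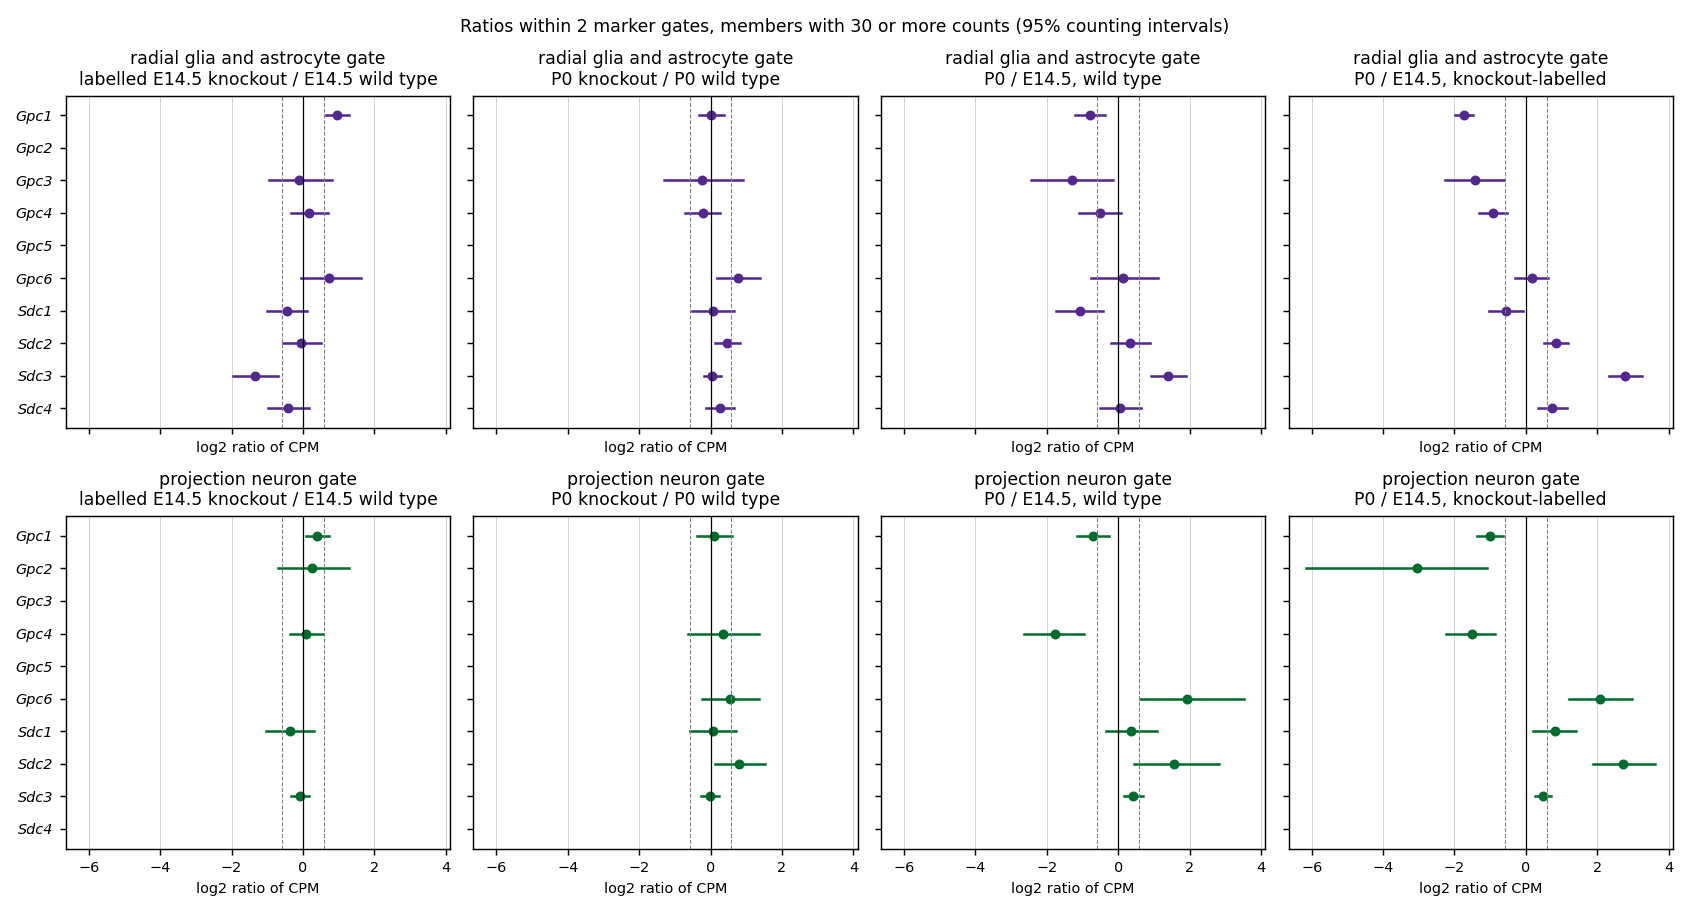
Log2 ratios of CPM within the radial glia and astrocyte gate (top) and the projection neuron gate (bottom) for members with 30 or more counts, with 95% counting intervals and dashed lines at 1.5-fold. Sdc3 in the radial glia and astrocyte gate lies at 1.39 and 2.78 in the comparisons between ages, and near 0 (0.05) between the P0 libraries.

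The other genes of the heparan sulfate pathway were taken from 8 lists of 82 genes, from chain initiation to ligands and receptors, and compared over whole libraries by the same fold. At P0, 13 of 70 genes with enough counts were higher in knockout and 4 lower, where 10.4% and 4.45% of all genes were, with a median of 0.27 beside 0.05 for all genes. Among radial glia and astrocytes their median was 0.24 beside 0.06, with 42 of 56 above 0 where 6284 of 11095 genes were. Of the 8 genes listed for glypican release and syndecan shedding, 3 were higher, where 10.4% of all genes were. These were Mmp2 (1.18), Reck (1.11), an inhibitor of shedding proteases, and Notum (0.94), at 9.87 CPM in knockout and 5.14 in wild type. An action of Notum on glypicans was not tested. Sulf2, which removes sulfate from the chains outside the cell, was at 70.0 and 29.2 CPM (1.26 [1.02, 1.51]). Hs3st4, a sulfotransferase of the chains, was lower at 2.61 and 15.6 CPM (-2.58 [-3.31, -1.91]). Other proteoglycans with heparan sulfate gave 3 of 8 higher, beside the same 10.4% (Cd44 at 1.11, Col18a1 and Tgfbr3) and Spock1 lower (-0.79), and the receptor Fgfr3 was higher at 143 and 87.8 CPM (0.71).

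Between the ages in wild type, 9 of 68 genes of the lists were higher at P0 and 14 lower, where 14.2% and 9.92% of all genes were, with a median of 0.04 beside 0.07 for all genes. The higher count thus lay near the share of all genes. Among radial glia and astrocytes the median was -0.01, with 26 of 54 above 0 where 4779 of 9585 genes were. The change of largest size was in Sulf1, the other extracellular sulfatase, at 5.14 CPM at P0 and 81.7 at E14.5 (-3.99 [-4.56, -3.46]), and Sulf2 was at -1.33. Xylt1, which starts the chains, was at 47.5 and 8.95 CPM (2.41 [1.97, 2.87]). Of the other proteoglycans Col18a1 (-2.32), Hspg2 (-0.96) and Spock1 (-0.59) were lower, and among the ligands Ptn, a heparin-binding growth factor, was at 2140 CPM at P0 and 853 at E14.5 (1.33). In the knockout-labelled libraries 20 of 74 genes were higher at P0 and 18 lower, where 23.3% and 13.9% of all genes were, with a median of 0.09 beside 0.08. The median among radial glia and astrocytes was 0.36 beside 0.03, with 38 of 57 above 0 where 5829 of 11255 genes were. Sulf1 was at -4.66, Hs3st4 at -3.74, Notum at 3.98, Hpse, the enzyme that cuts the chains, at 3.08 (31 counts against 6), Cd44 at 2.43, Xylt1 at 2.25 and Ptn at 1.92.

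At E14.5, 13 of 73 genes of the lists were higher in the library labelled knockout and 8 lower, where 9.71% and 10.9% of all genes were, with a median of 0.13 beside 0.06 for all genes. Within the radial glia and astrocyte gate 10 of 53 were higher and 15 lower, where 1657 and 1303 of all 9755 genes were (30.3% either way). The median there was -0.06 beside 0.09. In this gate 0 of 5 other proteoglycans were above 0, where 5545 of 9755 genes were. Of 6 genes for trimming and breakdown 4 were lower by 1.5-fold, beside the same 1303 of 9755. Of the 9 chain initiation genes 3 were higher over whole libraries, where 9.71% of all genes were, Pxylp1 (0.74), Xylt1 (0.68) and Extl2 (0.60), and the chain polymerase gene Ext2 was at 35.7 and 22.6 CPM (0.66). Gipc1, which binds the tails of syndecans, was at 0.91. Nrp1 (-0.70), Fgfr1 (-0.70) and Sulf2 (-0.59) were lower.

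**Figure D5:**
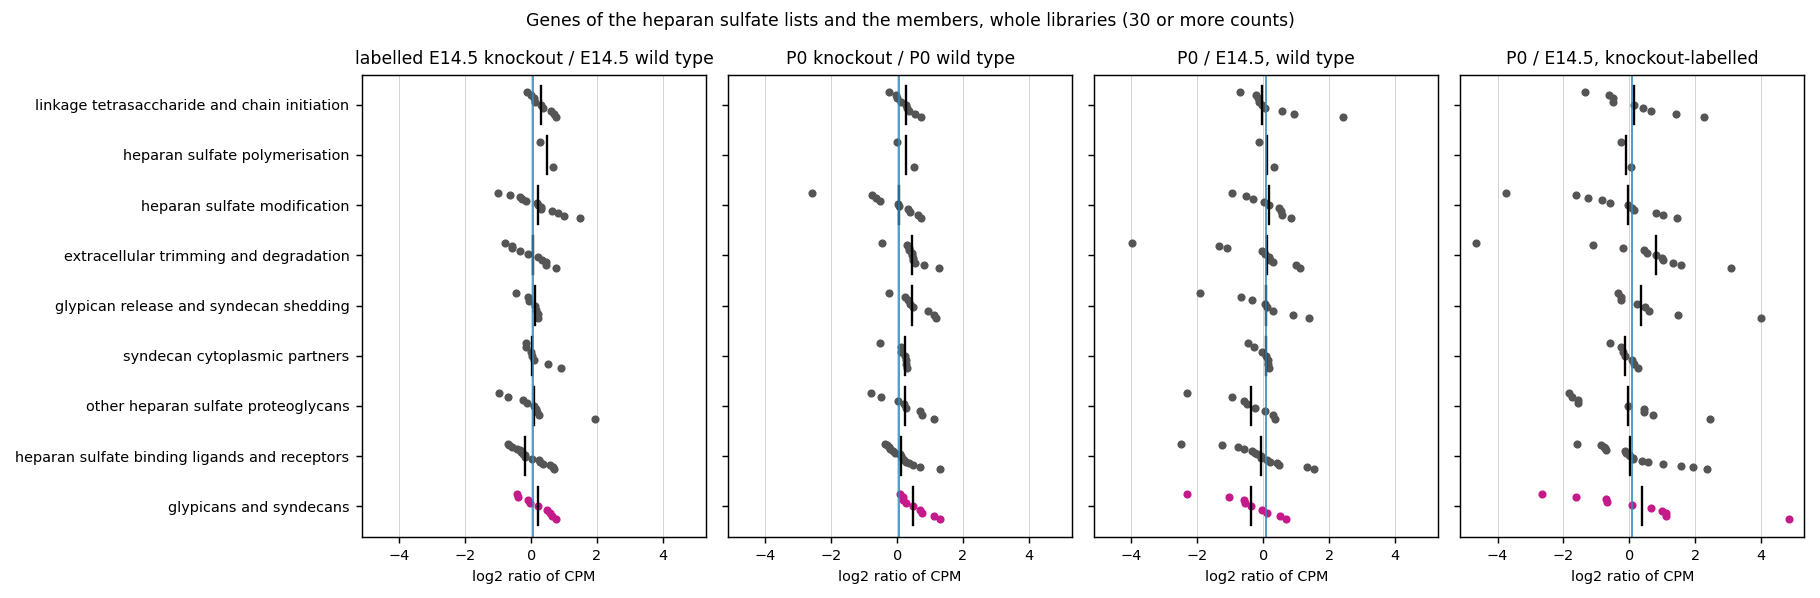
Log2 ratios of CPM over whole libraries for each gene of the 8 heparan sulfate lists (grey) and for the 10 glypicans and syndecans (pink), for genes with 30 or more counts. Black ticks are list medians and the blue line is the median of all genes. In the P0 knockout over wild type panel the members' median is 0.49 and the all-gene line is at 0.05.

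The genes most like each member were taken by the correlation of log2(CPM + 10) over the 23 gate sums. For Sdc4 these were Ctsc (r = 0.96), H2-K1 (0.94) and Hpgd (0.93), for Gpc3 Aebp1 (0.94), Msx1 (0.91) and Ogn (0.91), and for Sdc2 Axin2 (0.91), Ccnd3 (0.89) and Vasn (0.89). For Gpc6 they were Sfrp1 (0.84), Scara3 (0.83) and Nkain4 (0.82), and for Gpc4 Stxbp6 (0.83), Eprs (0.80) and Pard6b (0.79). Gpc1 was most like Cep78, Rps6ka6 and Dpysl4 (each 0.85), Sdc1 like Maged2 (0.82), Gstcd (0.81) and Tsen34 (0.80), and Sdc3 like Cd276 (0.79), Slx1b (0.79) and Rce1 (0.78). Among the members themselves the highest correlations were Sdc1 with Sdc2 (0.75) and Gpc6 with Sdc2 (0.73), and the lowest was Gpc3 with Sdc3 (-0.56). These are descriptions over sums that share libraries and depth.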

How the data were processed

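The authors deposited counts as whole numbers per gene and barcode, with no scaling, for 4 single-cell libraries of mouse cortex. Per the submitters' processing notes, the build was GRCm39 and the tools included R 4.3.2, Seurat 5 and FastQC 0.12.1. Which aligner and counting program were used, and whether reads were collapsed to molecules, was left not given in the sources used here.

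Kept barcodes had 500 or more counts, 300 or more genes and no more than 10% of counts from mitochondrial genes. Scrublet (scanpy 1.11.5, expected rate 5%) marked under 0.5% of each library, so doublets remain. Kept totals were 5584291, 14404051, 6025289 and 8812049 counts (E14.5 wild type, the library labelled E14.5 knockout, P0 wild type, P0 knockout). Counts were summed per library and gate and scaled to CPM. Intervals are exact Poisson for sums, conditional binomial for ratios and Clopper-Pearson for shares, all at 95%. Alternatives were other filters, gates, scalings (edgeR 4.0.16 TMM, DESeq2 1.42.0 size factors), thinning and leaving out barcodes. The interval code was tested on simulated data.

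The members and lists were chosen with earlier results of these data known. All 10 members are named, with at most 4 genes per list past 1.5-fold whose interval excludes no change, by size, and the 3 most correlated genes per member with 200 or more counts. A gene of the lists is not reported here.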

Additional observations from a re-analysis of the deposited data

Results flagged for a closer look

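Over whole libraries, the log2 ratio of Sdc3 under the knockout label was -0.41 [-0.57, -0.26] at E14.5 and 0.19 [0.06, 0.32] at P0. The 2 ages thus gave opposite directions over whole libraries, each with an interval clear of 0. At P0 the ratio within gates was 0.05 for radial glia and astrocytes, -0.18 for intermediate progenitors, -0.02 for projection neurons and -0.20 for inhibitory neurons, all with intervals that held 0, and the oligodendrocyte precursor gate, where Sdc3 was highest, held 2.68% of barcodes in wild type and 6.92% in knockout. At E14.5 the library labelled knockout held 74 Tsku counts, against its label, at 5.14 CPM beside 9.31 in wild type. The difference between the ages was not tested, since each age has 1 library per label.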

How the results depend on the processing

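No paired analysis was possible because each group holds 1 library. Of 1100 alternative values for 123 member ratios, 1029 stayed within the counting interval of the reported value, 67 moved outside it and 4 reversed. This total pools unlike settings. A reversal was scored only for ratios past 1.5-fold, so a change of sign in a smaller ratio counted as moved or kept. A value within the interval could still lose its call. Thinning to 1500 counts kept 75, moved 39 and reversed 4. Leaving out the 6 gates named above (endothelial to erythroid) kept 26 and moved 11. Leaving out barcodes with an oligodendrocyte precursor marker kept 22 and moved 10. A minimum of 1000 counts kept all 123. All 4 reversals came from thinning to 1500 counts, on few counts. They were Sdc2 at P0 in intermediate progenitors (-0.70) and Gpc4 between ages in knockout-labelled projection neurons (0.0925). Between ages in wild type they were Sdc2 in projection neurons (-0.36) and Sdc3 in inhibitory neurons (0.25). After thinning, 1 member was past 1.5-fold at E14.5, Gpc1 in place of Gpc6 and Gpc2, and 1 between ages in wild type, Gpc3, where 4 had been. At 2-fold, 0 members passed at E14.5, 2 at P0, 2 between ages in wild type and 5 between ages in the knockout-labelled libraries (from 9). The shares of all genes past the fold after thinning or at 2-fold were not computed. The alternatives that left out whole gates, or barcodes of the radial glia and astrocyte gate with an oligodendrocyte precursor marker, were chosen after seeing the data. Settings that took a library to 0 counts gave no ratio. Gpc2 and Gpc5 had the fewest counts of the members in each library, and the limit set by depth was not compared between members.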
